A study of Rattus norvegicus with 111 samples.

Results

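Albumin (Alb) and alpha-fetoprotein (Afp) are the 2 genes described here, of 20311 in the count tables. They were found by their Ensembl identifiers, ENSRNOG00000002911 for Alb and ENSRNOG00000002889 for Afp, and followed through every dose of both chemicals. Pregnant Sprague-Dawley rats, 11 to 12 weeks old at purchase, were dosed by mouth from gestational day 18 to 22 with PFO5DoA or PFO4DA. Both are fluoroether carboxylic acids, and PFO5DoA is the longer homologue. Controls of each chemical received the vehicle alone, 0.5% Tween-80, which every dosed dam received too. PFO5DoA was given at 0.1, 0.3, 1, 3, 10 or 30 mg/kg/d and PFO4DA at 0.3, 1, 3, 10, 30 or 62.5 mg/kg/d. Livers of the dam and of its fetuses were taken 2 to 4 hours after the last dose. Per the labels, body weights of dams at 30 mg/kg/d PFO5DoA ended about 17% below those of controls, with fetotoxicity seen in a single dam.

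The count tables held 111 libraries from 56 dams, usually 1 of maternal and 1 of fetal liver per dam, and their column names give the dam but not the life stage. Life stage was assigned from the values. Within a dam, the library whose profile of log2(CPM + 1), with CPM for counts-per-million, correlated better with that of dam 2286 was taken as maternal liver and the other as fetal liver, because dam 2286 had a maternal library alone. That reference dam was itself dosed, at 30 mg/kg/d PFO5DoA. Pearson's r was 0.943 to 0.988 for the libraries taken as maternal and 0.861 to 0.923 for those taken as fetal, and the 2 ranges did not overlap. In 54 of 54 dams with 2 libraries the assignment was the same with Alb and Afp left out of the correlation. These 2 genes weigh little among 20311, and the smallest gap in r within a dam was 0.0524. The check shows only that they did not set the assignment, and it is no test of the assignment itself. Dam 2279, a PFO5DoA control with a library of 45505 counts, was dropped, which left 55 maternal and 54 fetal libraries. Their totals ran from 7133010 to 15255000 counts. The number of fetuses behind a fetal library is not given in the sources used here.

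Albumin is the most abundant protein of adult plasma and is made by hepatocytes, the main cells of the liver. Alpha-fetoprotein is its relative in the same gene family and is the main plasma protein of the fetus, made by fetal liver and yolk sac. After birth hepatocytes turn Afp down strongly, while Alb stays on. The RefSeq gene order places both side by side on chromosome 14, with Afm (afamin), another member of the family, next to Afp and Ankrd17 next to Alb.

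The 250 bases upstream of each start site are shown because both genes are known targets of the hepatocyte factor HNF1, whose element holds the letters GTTAAT, printed in capitals. Both are from RefSeq (GRCr8), on the minus strand, and cover chr14:17906980-17907229 for Alb and chr14:17875646-17875895 for Afp.
Alb: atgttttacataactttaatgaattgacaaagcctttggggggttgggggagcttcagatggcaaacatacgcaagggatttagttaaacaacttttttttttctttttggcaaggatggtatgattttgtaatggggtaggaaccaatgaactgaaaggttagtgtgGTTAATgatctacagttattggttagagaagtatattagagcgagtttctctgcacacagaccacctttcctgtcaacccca
Afp: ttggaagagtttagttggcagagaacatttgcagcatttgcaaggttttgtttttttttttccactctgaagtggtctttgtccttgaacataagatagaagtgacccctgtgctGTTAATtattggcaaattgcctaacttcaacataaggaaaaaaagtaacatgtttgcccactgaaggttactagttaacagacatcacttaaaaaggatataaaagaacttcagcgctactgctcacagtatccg
GTTAAT was searched on both strands and occurred once in each window, 82 bases before the start site of Alb and 135 bases before that of Afp. Of 33469 RefSeq promoter windows of the same length, 6.45% held it. The letters CCAAT were present in both windows and in 34% of all windows. TATAAA was found in the Afp window only, 37 bases before the start site, and in 12.9% of all windows. These are matches of letters and not measured binding sites.

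The life stages differed in opposite directions for the 2 genes. These differences are described without a test because the values of all genes assigned the stages. Levels are given as CPM, the counts of a gene relative to those of its library after TMM scaling within a life stage and chemical. Ratios between the 2 livers of a dam use CPM of the library total without TMM scaling. Among the 5 PFO5DoA control dams, the fetal library held 416 to 732 times the Afp of the maternal library of the same dam, with a median of 487. Among the 6 PFO4DA control dams this ratio was 269 to 427, with a median of 326. Alb was higher in the maternal library, by 1.22 to 2.79 times in PFO5DoA controls and by 2.30 to 5.93 times in PFO4DA controls. Afp made up a mean of 2.54% of all counts in fetal PFO5DoA controls and 0.00517% in maternal ones. Alb made up 0.659% of the fetal and 1.38% of the maternal counts. Probes capture different RNAs with different efficiency, so a level of Afp is not compared with a level of Alb.

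**Figure D1:**
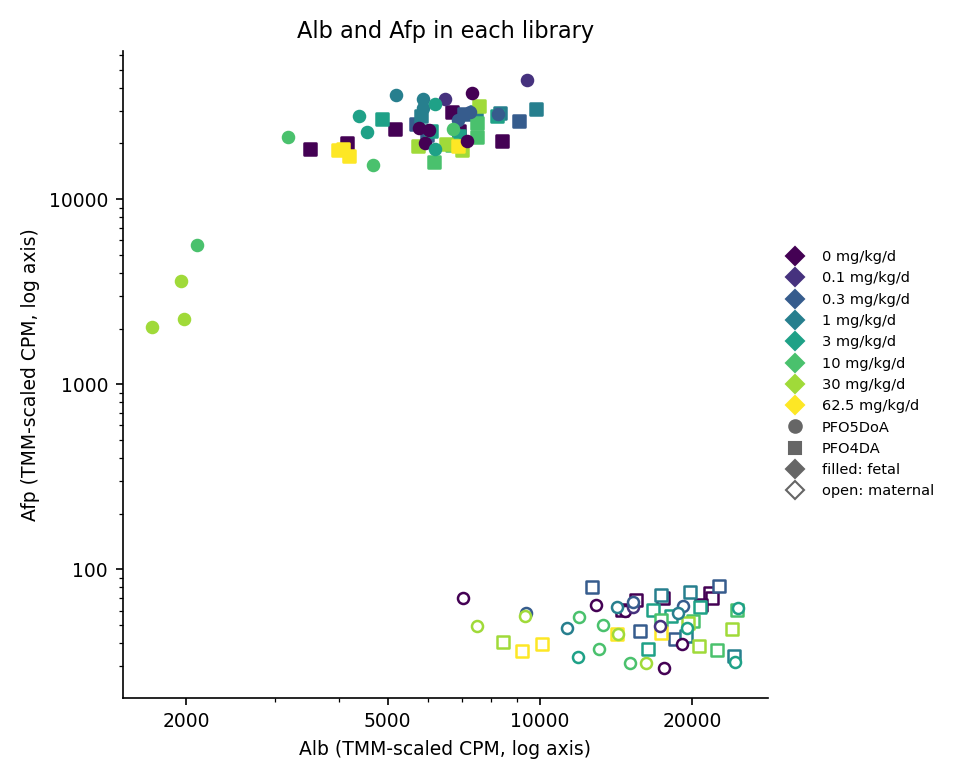
Alb (x axis) and Afp (y axis) in each library, both in TMM-scaled CPM on log axes, with colour for dose, circles for PFO5DoA, squares for PFO4DA, filled points for fetal and open points for maternal libraries. Maternal libraries lie at the bottom at or below 81.4 CPM of Afp, and fetal libraries lie at the top, except 4 fetal PFO5DoA libraries (3 at 30 and 1 at 10 mg/kg/d) that lie lower and to the left.

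Afp in fetal liver fell steeply at the highest dose of PFO5DoA. Fetal Afp was 37342, 23694, 24238, 20753 and 20127 CPM in the 5 controls. In the highest dose group it was 3625, 2256 and 2028 CPM. All 3 dosed libraries lay far below the lowest control, and the groups did not overlap. Its log2 fold change was -3.26 (SE 0.39), a 9.57-fold lower level (edgeR quasi-likelihood test with Benjamini-Hochberg adjustment over all genes, adjusted p = 1.75e-06). Of the 11458 genes tested in that comparison 30.0% were called, and the fold change of Afp lay at the percentile 1.06 of all of them, counted from the largest fall. In bulk liver, fewer hepatocytes and less Afp RNA per hepatocyte cannot be told apart.

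Fetal Alb fell at the same dose, by less. Fetal Alb was 7342, 6031, 5759, 7177 and 5916 CPM in the controls. The livers at 30 mg/kg/d had 1956, 1976 and 1712 CPM. Afp made up 0.313% and Alb 0.224% of all counts there. The 3 dosed libraries again lay below every control, and close to each other. Alb had a log2 fold change of -1.78 (SE 0.27), a 3.43-fold lower level (edgeR, adjusted p = 3.68e-05), at the percentile 4.04 of all genes. The ratio of Afp to Alb counts, which does not depend on library scaling, was 5.09, 3.93, 4.21, 2.89 and 3.40 in the fetal controls. It was 1.85, 1.14 and 1.18 at 30 mg/kg/d, below every control. It was computed after the levels had been seen and is given without a test.

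All 3 fetal libraries at 30 mg/kg/d came from the second run of dam numbers. Each chemical's dams fall into 2 runs of consecutive numbers, and each run opens with its own controls. What separates the runs is not given in the sources used here. Within the second run alone, against its 2 controls, the log2 fold change was -2.95 (SE 0.53) for Afp and -1.80 (SE 0.42) for Alb, and both were called (edgeR, adjusted p = 0.00643 and 0.0187). With run as a term in the fit they were -2.97 and -1.82. Suffixes of the column names, which look like plate positions, followed the dose in the second run (Spearman's rho 0.97 over 9 fetal libraries). Suffix order and dose therefore cannot be told apart there. A set of 42 genes with at least 64 CPM in fetal controls and at least 64 times the maternal level, Alb and Afp left out and chosen from the values of the controls, summed to 110898 to 243555 CPM in the 5 fetal controls, to 110898 to 147376 CPM in the 2 controls of the second run, and to 51457 to 122724 CPM at 30 mg/kg/d, so the last 2 ranges overlapped. The median sum of the 3 libraries at 30 mg/kg/d was 68723.5 CPM, below every control, so only the highest of them reached the control range. The part of these 42 genes in the fall of Afp was not tested.

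At 10 mg/kg/d PFO5DoA the fetal libraries of different dams lay far apart, with a coefficient of variation of 49.2% for Afp and 48.1% for Alb, against 27.8% and 11.7% in controls. Afp was 15330, 21753, 24037 and 5680 CPM. Alb was 4680, 3175, 6734 and 2103 CPM. The lowest value of both genes came from dam 2284, and 2 of the 4 libraries lay below all controls for Afp and 3 of the 4 for Alb. Against controls the log2 fold change was -0.60 (SE 0.31, adjusted p = 0.221) for Afp and -0.63 (SE 0.23, adjusted p = 0.0778) for Alb by edgeR. DESeq2 and limma called Alb at this dose, with adjusted p = 0.022 and 0.0309. Without dam 2283, whose Alb was the highest of the 4, the edgeR value for Alb was -0.996 and called (adjusted p = 0.00345). Without dam 2284, the lowest of the 4, it was -0.41 for Alb and -0.31 for Afp, and neither was called (adjusted p = 0.218 and 0.481).

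The 2 dams at 0.1 mg/kg/d were too few for a test, and their fetal libraries had 34784 and 43956 CPM of Afp and 6482 and 9413 CPM of Alb. From 0.3 to 3 mg/kg/d no fetal PFO5DoA comparison of Alb or Afp passed the test. Afp was 29022, 29756 and 26850 CPM at 0.3 mg/kg/d and 34682, 36337 and 31073 CPM at 1 mg/kg/d. Every one of these 6 libraries lay above all controls but dam 2263, which had the highest control value. All 6 were of the first run of dams, where control Afp averaged 28424.5 CPM, against 20440 CPM in the second. At 3 mg/kg/d Afp was 32558, 28023, 22985 and 18625 CPM, with the 2 higher values in the first run of dams. Alb was 8242, 7258 and 6882 CPM at 0.3, 5875, 5190 and 5876 CPM at 1, and 6212, 4399, 4543 and 6211 CPM at 3 mg/kg/d. Alb overlapped the controls at each of these doses.

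Over all doses, 2 of the 10 fetal PFO5DoA comparisons of Alb and Afp were called, both at 30 mg/kg/d. The share of all genes called was 0.113%, 2.44%, 7.21% and 14.9% at 0.3, 1, 3 and 10 mg/kg/d. Ordered by mean, Afp was 39370 CPM at 0.1, 34031 at 1, 28543 at 0.3, 25548 at 3, 25231 in controls, 16700 at 10 and 2636 at 30 mg/kg/d. Neighbours in that order overlapped, except 1 and 0.3 mg/kg/d, and 10 and 30 mg/kg/d. Alb ran from 7947 CPM at 0.1 mg/kg/d through 7461 at 0.3, 6445 in controls, 5647 at 1, 5341 at 3 and 4173 at 10 to 1881 at 30 mg/kg/d. There only 10 and 30 mg/kg/d did not overlap.

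Fitted over all tested doses, both genes had a falling slope in fetal PFO5DoA liver. For Afp the fall was not steady, as its log2 fold change was 0.18, 0.43 and 0.02 at 0.3, 1 and 3 mg/kg/d. All dams at 0.3 and 1 mg/kg/d were of the first run, and the controls were of both. With run as a term these 3 values were 0.02, 0.27 and 0.06. The slope per unit of log2(dose + 1) was -0.48 (SE 0.11) for Afp and -0.32 (SE 0.05) for Alb (edgeR, adjusted p = 0.00135 and 4.31e-05), while 36.6% of all genes were called for this trend. Without the 30 mg/kg/d libraries the Alb slope was -0.20 and called (adjusted p = 0.0315), and the Afp slope was -0.19 and not called (adjusted p = 0.165). Without dam 2284 as well, neither was called, with slopes of -0.15 for Alb and -0.10 for Afp (adjusted p = 0.0738 and 0.344).

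**Figure D2:**
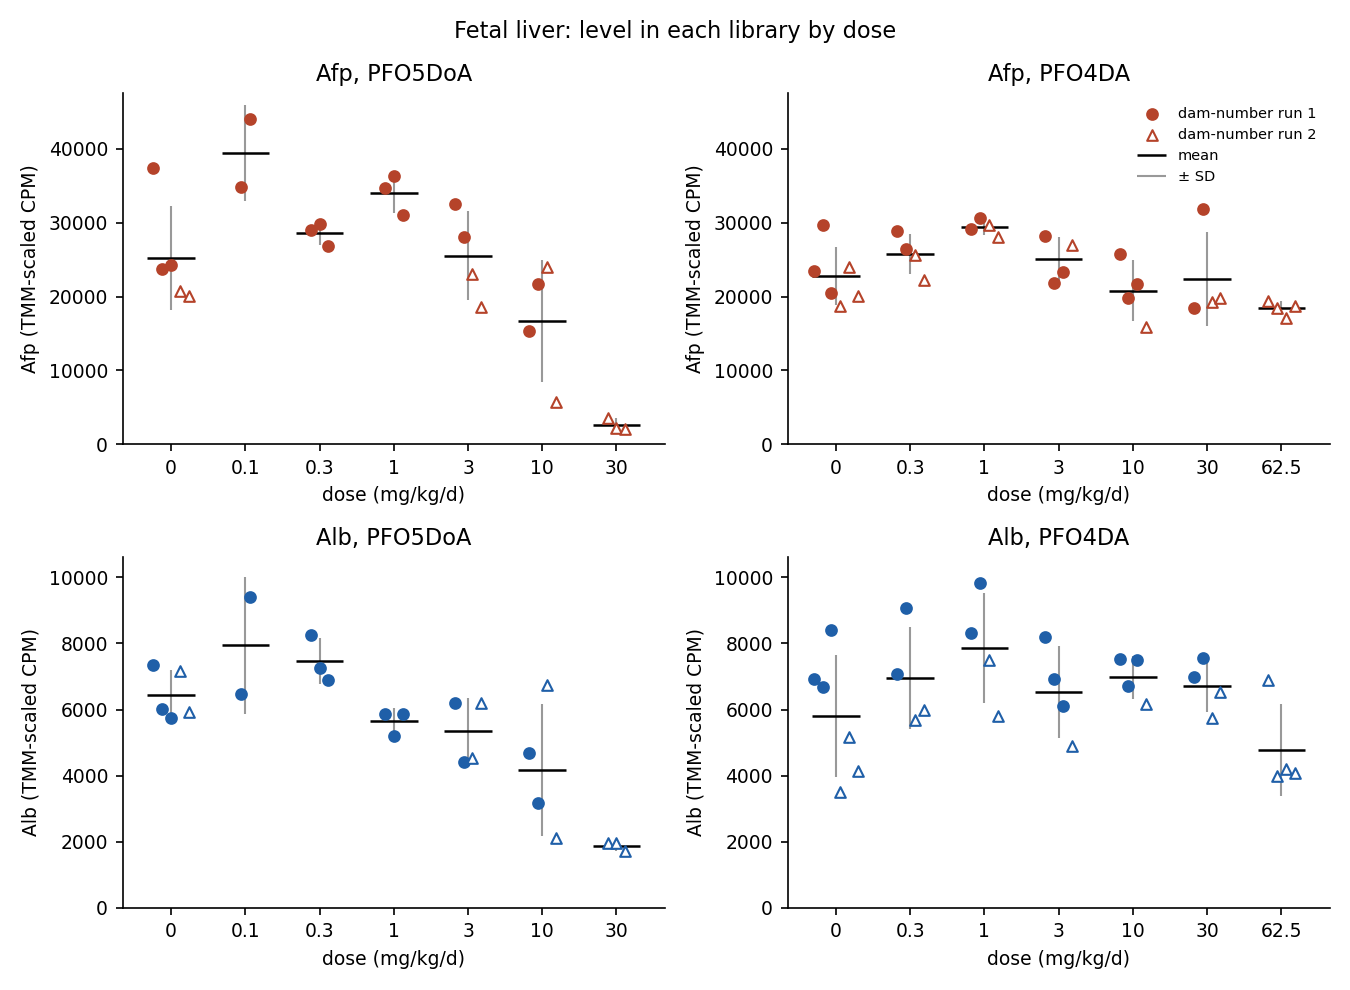
Afp (top) and Alb (bottom) in TMM-scaled CPM in each fetal library by dose, PFO5DoA on the left and PFO4DA on the right, with filled circles for the first and open triangles for the second run of dam numbers, black bars for the mean and grey lines for 1 SD on either side. For PFO5DoA the 3 libraries at 30 mg/kg/d lie at or below 3625 CPM of Afp, under every control, and for PFO4DA every dose overlaps the controls.

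In fetal liver of the shorter homologue, PFO4DA, neither gene passed the test at any dose. Afp ran from 18718 to 29744 CPM in the 6 controls, with a median of 21999. At 30 mg/kg/d it was 18490, 31815, 19327 and 19819 CPM, followed by 19383, 18427, 17074 and 18762 CPM at 62.5 mg/kg/d. In the latter group 2 libraries lay below all controls, and the group overlapped them. The log2 fold change at 62.5 mg/kg/d was -0.31 (SE 0.16, adjusted p = 0.27) and at 30 mg/kg/d -0.03 (SE 0.16, adjusted p = 0.964) by edgeR.

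Alb in fetal PFO4DA controls ran from 3509 to 8396 CPM, with a median of 5924. This spread followed the runs of dam numbers, with 6927, 6690 and 8396 CPM in the first run and 3509, 5158 and 4156 CPM in the second. Alb was 6997, 7571, 5744 and 6526 CPM at 30 mg/kg/d. The 62.5 mg/kg/d livers, all of the second run, had 6880, 3984, 4187 and 4080 CPM. The dosed groups overlapped the controls. Against controls the log2 fold change of Alb at 62.5 mg/kg/d was -0.28 (SE 0.21, adjusted p = 0.488) over both runs and 0.16 (adjusted p = 0.736) within the second run alone. At 30 mg/kg/d it was 0.21 (SE 0.21, adjusted p = 0.681).

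At 1 mg/kg/d Afp was 29118, 30589, 29720 and 28087 CPM and Alb 8325, 9830, 7490 and 5808 CPM, the highest means of this series of doses, with log2 fold changes of 0.37 and 0.44 (edgeR, adjusted p = 0.592 and 0.623). Of the 12 fetal PFO4DA comparisons 0 were called by edgeR, DESeq2 or limma, and 2, those at 1 mg/kg/d, had an unadjusted p under 0.05. Of all genes, 0.0%, 0.0%, 0.332%, 2.66%, 6.53% and 10.7% were called at 0.3, 1, 3, 10, 30 and 62.5 mg/kg/d. Mean Afp was 29378 CPM at 1, 25766 at 0.3, 25077 at 3, 22763 in controls, 22363 at 30, 20778 at 10 and 18411 at 62.5 mg/kg/d. Mean Alb was 7863 at 1, 6975 at 10, 6960 at 0.3, 6710 at 30, 6526 at 3, 5806 in controls and 4783 at 62.5 mg/kg/d. All neighbours in both orders overlapped. Over the doses the Afp slope was -0.06 (SE 0.02, adjusted p = 0.0461) and the Alb slope -0.04 (SE 0.03, adjusted p = 0.447), where 19.2% of all genes were called. The Afp slope was not called with run as a term (adjusted p = 0.0716), without the 62.5 mg/kg/d libraries (adjusted p = 0.503), with ranked doses (adjusted p = 0.133) or with scaling to the library total, where it was -0.038 (adjusted p = 0.176). Leaving out 1 dam at a time, it was called in 10 of 30 fits.

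Afp was counted in every maternal library, with 289 to 791 counts. In PFO4DA controls it ran from 60.1 to 74.8 CPM, with a median of 69.3. Afp was 81.4, 80.6, 42.1 and 46.4 CPM at 0.3 mg/kg/d, 75.2, 72.6, 44.0 and 34.0 CPM at 1 mg/kg/d, and 60.4, 62.6, 55.8 and 37.4 CPM at 3 mg/kg/d. It was 53.2, 60.4, 52.8 and 36.6 CPM at 10 mg/kg/d, 51.4, 47.7, 38.5 and 40.6 CPM at 30 mg/kg/d, and 39.4, 44.9, 45.4 and 36.4 CPM at 62.5 mg/kg/d. From 0.3 to 10 mg/kg/d the dosed libraries overlapped the controls, and at 30 and 62.5 mg/kg/d every library lay below all 6 controls.

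Over both runs together, maternal Afp declined with the dose of PFO4DA. The slope was -0.11 per unit of log2(dose + 1) (SE 0.02, edgeR, adjusted p = 0.00515), where 2.83% of all genes were called. Group means fell in dose order, from 68.1 CPM in controls through 62.6, 56.5, 54.0, 50.8 and 44.6 to 41.5 CPM at 62.5 mg/kg/d, and neighbours in that order overlapped. The log2 fold change was -0.61 (SE 0.20, adjusted p = 0.306) at 30 mg/kg/d and -0.71 (SE 0.20, adjusted p = 0.0556) at 62.5 mg/kg/d, so no single dose passed in this fit. With run as a term Afp at 30 mg/kg/d was -0.63 and called (edgeR, adjusted p = 0.00943). In that fit 62.5 mg/kg/d was -0.45 and not called (adjusted p = 0.078). With the replicate number as a block 62.5 mg/kg/d was -0.79 and called (edgeR, adjusted p = 0.0142). There 30 mg/kg/d was -0.69 and not called (adjusted p = 0.109). With run as a term the slope was -0.09 (adjusted p = 0.00333), and without the 62.5 mg/kg/d libraries it was -0.11 (adjusted p = 0.152).

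This maternal decline moved with other measures as well. In the second run of PFO4DA dams the 3 controls had 60.1 to 70.2 CPM of Afp, and the 12 dosed libraries, from 0.3 to 62.5 mg/kg/d, all had 34.0 to 46.4 CPM. Within that run the log2 fold change was -0.56, -0.74, -0.80 and -0.83 at 0.3, 1, 3 and 10 mg/kg/d, with 1 dam each at 3 and 10 mg/kg/d. Within this run the fall thus did not deepen steadily with the dose. Suffixes of the column names, which have the form of plate positions, carry the letter D for those 3 controls and E for those 12 dosed libraries, and within each run they follow the order of the doses. Suffix and dosing therefore cannot be told apart in that run. In the other runs of both chemicals and livers the dose never fell with the suffix order either. Spearman's rho of suffix order and dose was 0.96 to 0.99 over all runs, so suffix order and dose are confounded there too. In the first run, where controls had 68.6 to 74.8 CPM and dosed libraries 47.7 to 81.4 CPM, the log2 fold change at 30 mg/kg/d was -0.52 (adjusted p = 0.508). Within the second run it was -0.72 at 30 and -0.65 at 62.5 mg/kg/d (adjusted p = 0.0442 and 0.00991).

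The genes whose maternal PFO4DA profile was most like that of Afp were ones with far higher fetal than maternal levels. Likeness is Pearson's r of log2(CPM + 1) over the 30 maternal libraries, given as a description. The 5 highest r were 0.74 to 0.80, and those 5 genes had mean levels of 0.667 to 4.31 CPM in maternal and 215 to 1207 CPM in fetal libraries. For one of them, ENSRNOG00000020165, r was 0.80 here and 0.79 over the 25 maternal PFO5DoA libraries. All 5 belong to the 42 fetal-high genes defined above, whose sum in maternal PFO4DA libraries was 1167 to 2574 CPM in controls and 558 to 2348 CPM in dosed dams. Across the 30 maternal PFO4DA libraries that sum and Afp had an r of 0.28 and a rho of 0.21 (permutation tests, adjusted p = 0.173 and 0.344), with r of -0.13 in the first and 0.36 in the second run, and 0.15 without the 2 farthest dams. In maternal PFO5DoA liver 1 of the 5 genes most like Afp belonged to the 42.

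Maternal Alb did not pass the test at any PFO4DA dose. It ran from 14548 to 21856 CPM in controls, with a median of 19152. At 30 mg/kg/d it was 19620, 23932, 20609 and 8451 CPM, and at 62.5 mg/kg/d 10093, 14187, 17312 and 9210 CPM. At 62.5 mg/kg/d 3 of the 4 libraries lay below all controls. The log2 fold change there was -0.55 (SE 0.22, adjusted p = 0.219), and at 30 mg/kg/d -0.04 (SE 0.22, adjusted p = 0.993). The Alb slope was -0.05 (adjusted p = 0.599).

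Of the 12 maternal PFO4DA comparisons of Alb and Afp 0 were called by edgeR and limma and 1 by DESeq2 (Afp at 62.5 mg/kg/d, adjusted p = 0.0209), and 4 had an unadjusted p under 0.05 in edgeR. Of all genes, 0.0%, 0.0%, 0.0%, 0.00979%, 0.646% and 2.47% were called from 0.3 to 62.5 mg/kg/d. Mean maternal Alb was 21042 CPM at 10, 20174 at 1, 18641 in controls, 18153 at 30, 17968 at 3, 17367 at 0.3 and 12701 at 62.5 mg/kg/d, and all neighbours overlapped.

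In maternal PFO5DoA liver neither gene passed the test at any dose. Afp was 70.6, 59.5, 64.5, 39.7 and 29.2 CPM in the controls, high in the first and low in the second run of dams. At 30 mg/kg/d, all in the second run, it was 31.2, 45.0, 56.3 and 49.3 CPM. The log2 fold change was -0.22 (SE 0.24, adjusted p = 0.494) against all controls, and 0.40 (SE 0.25, adjusted p = 0.27) within the second run. The sign therefore depended on the run, and no direction is read from it. Alb was 7047, 14684, 12901, 19053 and 17546 CPM in the controls and 16175, 14284, 9344 and 7521 CPM at 30 mg/kg/d. Its log2 fold change was -0.27 (SE 0.29, adjusted p = 0.485), with overlapping groups.

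At the other PFO5DoA doses maternal Afp ran from 31.4 to 66.7 CPM and maternal Alb from 9384 to 24641 CPM. The highest mean of Alb was 20059 CPM, at 3 mg/kg/d, with 3 of 4 libraries above all controls, and its comparison was not called (adjusted p = 0.394). Means at 0.1, 0.3, 1 and 10 mg/kg/d were 16279, 14594, 14758 and 13364 CPM for Alb and 56.0, 62.8, 56.2 and 43.6 CPM for Afp, beside 14246 and 52.7 CPM in controls. Of the 10 maternal PFO5DoA comparisons 0 were called by edgeR, DESeq2 or limma, and 0 had an unadjusted p under 0.05. Of all genes, 0.0%, 0.456%, 2.77%, 14.1% and 40.1% were called from 0.3 to 30 mg/kg/d. For the trend 42.7% of all genes were called, and Alb and Afp were not (slopes -0.05 and -0.08, adjusted p = 0.458 and 0.125).

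**Figure D3:**
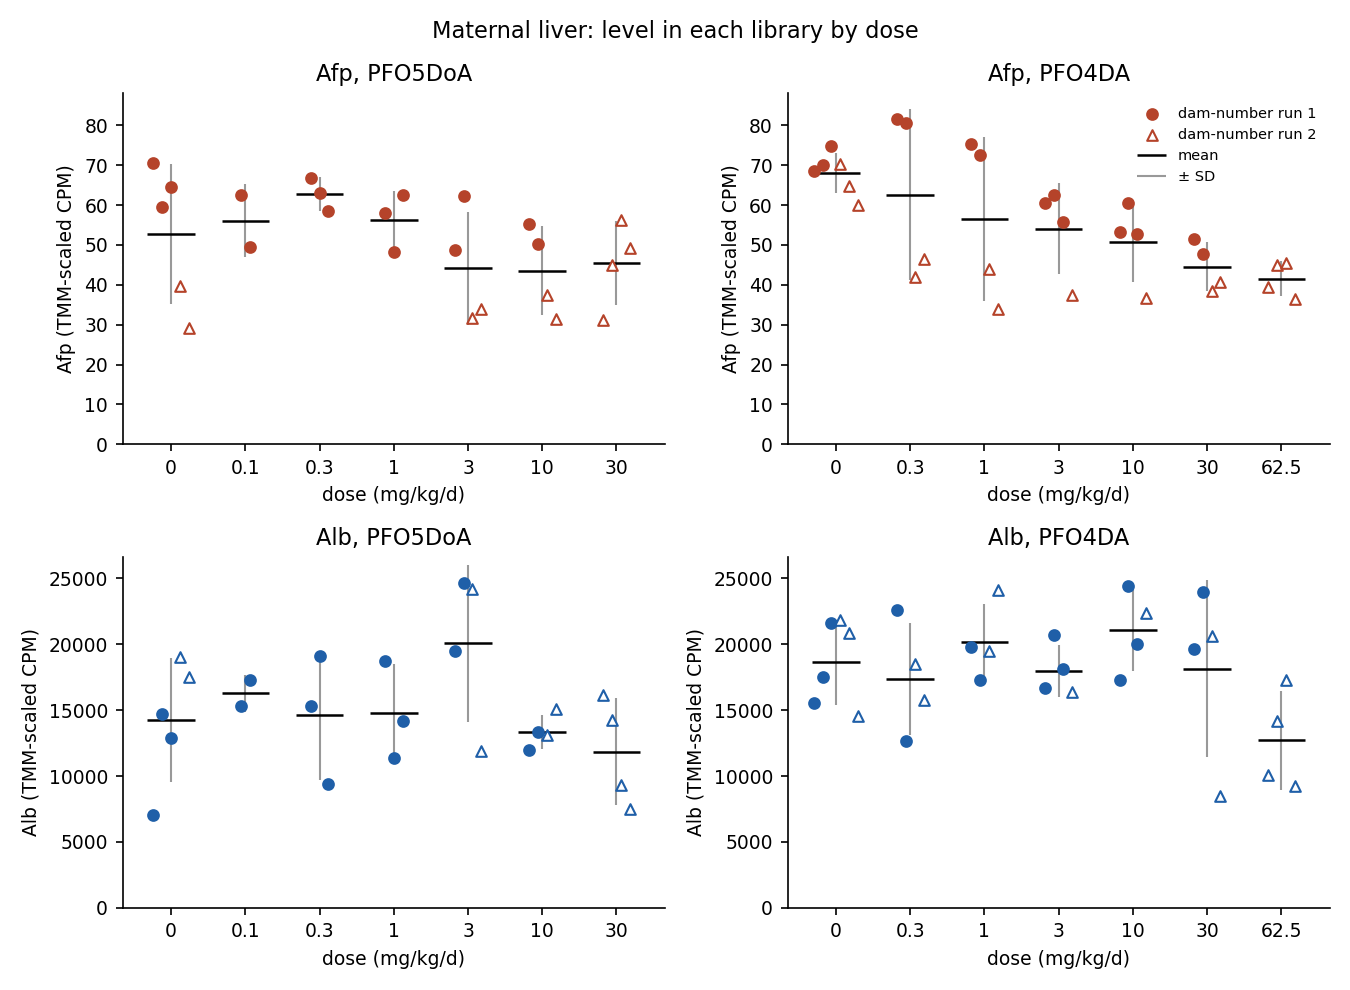
Afp (top) and Alb (bottom) in TMM-scaled CPM in each maternal library by dose, PFO5DoA on the left and PFO4DA on the right, with filled circles for the first and open triangles for the second run of dam numbers, black bars for the mean and grey lines for 1 SD on either side. Second-run libraries have the lower Afp in most groups that hold both runs, and Afp of PFO4DA dams at 30 and 62.5 mg/kg/d lies below all 6 controls.

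The change at 30 mg/kg/d PFO5DoA differed between the livers of the same dams. The maternal minus the fetal log2 fold change, fitted over both livers with the dam as a block, was 3.15 for Afp (SE 0.41, edgeR, adjusted p = 1.34e-05) and 1.44 for Alb (SE 0.45, adjusted p = 0.0314). Both were called, in a comparison where 15.1% of all genes were, and the other 8 PFO5DoA comparisons of life stages were not. The shares of all genes there were 0.0%, 0.0927%, 1.21% and 4.91% at 0.3, 1, 3 and 10 mg/kg/d. The Alb difference rested on few dams. Leaving out 1 dam at a time, it was called in 3 of 8 fits and ran from 1.11 to 1.57, with the loss of the call without control dams 2263 or 2265 or without dosed dams 2285, 2287 or 2288. The dosed dams were all of the second run, and the controls were of both. Control Alb averaged 11544 and 18300 CPM in the first and second run in maternal liver, and 6377 and 6546 CPM in fetal liver. Within the second run alone the log2 fold change of Alb was -0.63 in maternal and -1.80 in fetal liver, and their difference was not tested. Across the 3 dams with both livers, the fetal library at 30 mg/kg/d held 131, 41.5 and 37.1 times the maternal Afp, against 416 to 732 times in controls.

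For PFO4DA 0 of 12 comparisons of life stages were called by edgeR or limma, and 3 had an unadjusted p under 0.05. Of all genes, 0.0%, 0.0%, 0.00863%, 0.475%, 1.03% and 2.75% were called from 0.3 to 62.5 mg/kg/d. At 62.5 mg/kg/d the maternal minus the fetal log2 fold change was -0.42 for Afp (95% interval -0.89 to 0.05) and -0.31 for Alb (95% interval -0.95 to 0.32).

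The 2 chemicals were compared at the 5 doses they share. Each compound's change was taken against its own controls, and the difference between these changes was tested in a joint fit. In fetal liver at 30 mg/kg/d the PFO5DoA change was lower than the PFO4DA change by a log2 difference of -3.24 for Afp (SE 0.36, edgeR, adjusted p = 1.45e-08) and -1.99 for Alb (SE 0.34, adjusted p = 3.26e-05). Both were called, where 13.6% of all genes were. At 10 mg/kg/d the difference was -0.90 for Alb (SE 0.31, adjusted p = 0.0985) and -0.48 for Afp (SE 0.32, adjusted p = 0.511), where 3.92% of all genes were called. Without dam 2284 the Afp difference was -0.20 (adjusted p = 0.77), and without control dam 2263 it was -0.31 (adjusted p = 0.715).

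Of the 10 fetal comparisons of the chemicals 2 were called, and of the 10 maternal ones 0 by edgeR, DESeq2 or limma, with 0 at an unadjusted p under 0.05. The share of all genes called at 0.3, 1 and 3 mg/kg/d was 0.00853%, 0.708% and 1.66% in fetal liver. In maternal liver it was 0.0%, 0.12%, 0.747%, 8.79% and 20.1% from 0.3 to 30 mg/kg/d. At 30 mg/kg/d the maternal difference was 0.40 for Afp (95% interval -0.23 to 1.02) and -0.23 for Alb (95% interval -0.93 to 0.47). In fetal liver at 3 mg/kg/d it was -0.12 for Afp (95% interval -0.76 to 0.52) and -0.44 for Alb (95% interval -1.06 to 0.18). These intervals include 0 and leave room for differences in either direction.

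**Figure D4:**
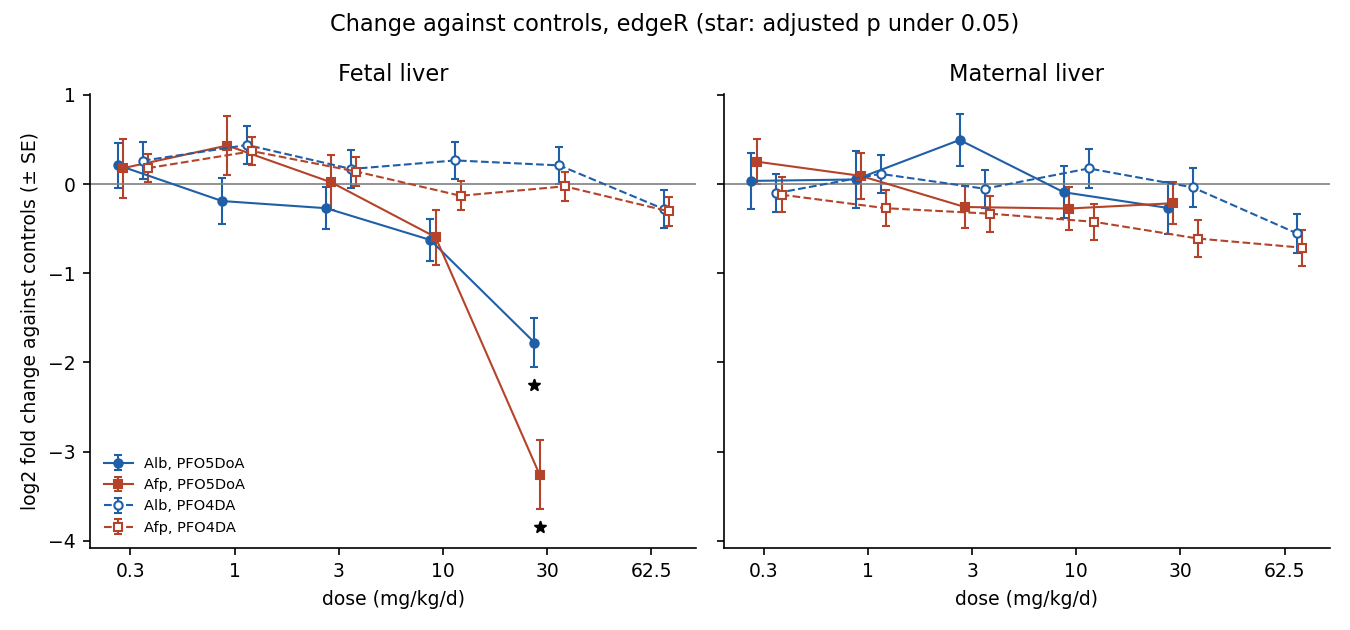
Log2 fold change of Alb (blue) and Afp (red) against the controls of each chemical by dose, with SE, for fetal (left) and maternal liver (right), solid lines for PFO5DoA and dashed lines for PFO4DA, and stars for an adjusted p under 0.05 by edgeR. Both stars are at 30 mg/kg/d PFO5DoA in fetal liver, at -3.26 for Afp and -1.78 for Alb.

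Alb and Afp moved together across fetal libraries of PFO4DA. Over these 30 dams Pearson's r of the log2 levels was 0.54 and Spearman's rho 0.55 (permutation tests, adjusted p = 0.00836 and 0.0147 over 8 relations). The permutations shuffled dams over runs and doses, so a shift shared by a run or dose also counts as likeness in these tests. Within the runs of dams r was 0.39 in each, and without the 2 dams farthest from the median Alb it was 0.47. Ordered by r with Afp over these libraries, Alb had rank 443 of 11132 genes. Over the 21 fetal PFO5DoA libraries below 30 mg/kg/d, r was 0.75 and rho 0.46 (permutation tests, adjusted p = 0.00836 and 0.0753). Without the 2 farthest dams that r was 0.43, so much of it rested on them. With them included, r was 0.59 in the 15 libraries of the first run and 0.91 in the 6 of the second. The 30 mg/kg/d libraries form a cluster of their own and were left out. In maternal liver r between Alb and Afp was -0.26 for PFO5DoA and 0.24 for PFO4DA (permutation tests, adjusted p = 0.216 for both, unadjusted 0.216 and 0.194).

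Between the livers of a dam, fetal and maternal Afp had an r of 0.56 over 21 PFO5DoA dams and 0.33 over 30 PFO4DA dams (permutation tests, adjusted p = 0.0131 and 0.157). Within runs these were -0.03 and 0.33 for PFO5DoA and 0.27 and -0.09 for PFO4DA, so the relation did not hold within runs. Over all 24 fetal PFO5DoA libraries, the 30 mg/kg/d ones included, r between Alb and Afp was 0.90, which placed Alb at rank 61 of 11457 genes ordered by r with Afp. The 5 genes most like Afp there, led by ENSRNOG00000019424, had r of 0.962 to 0.973, and the least like, ENSRNOG00000006789, had -0.957. These r are descriptions, since the libraries share the fall at 30 mg/kg/d.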

How the data were processed

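Liver RNA of dams and fetuses was measured by TempO-Seq, a probe-based assay that sequences ligated probes in place of the RNA itself. The panel held 22253 probes for 20924 genes, per the labels. The authors deposited 1 table of estimated counts per chemical, with 20311 genes. Some counts have decimals and were rounded to whole numbers. STAR 2.7.8a, Partek, the build mRatBN7.2 and DESeq2 are listed in the submitters' processing notes, without their roles. The RefSeq promoters are from another build, GRCr8, and its coordinates were used for nothing else. Only 2 of 20311 identifiers could be paired with a symbol, so other genes of the family and lists of other cell types were not analysed here.

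Life stage was assigned from the values, as described above, and the comparison of levels between stages was therefore not tested. Genes were filtered (filterByExpr), scaled (TMM) and tested with edgeR 4.0.16 (R 4.3.3; quasi-likelihood, all doses of 1 chemical and stage in a fit, Benjamini-Hochberg over all genes, threshold 0.05). SE is the log2 fold change divided by the root of F, and a 95% interval is the estimate plus or minus a normal multiple of its SE. Alternatives used DESeq2 1.42.0, limma 3.58.1 on log2(CPM + 1), other scalings, no filter, run of dams, replicate block and leaving out dams. Those added after the data had been seen are single runs of dams, the trend with run as a term or without certain dams, and leaving out dams for trends and differences. The procedure was tested on simulated data. Alb and Afp are always named, and other genes by the 5 highest and 2 lowest r. The genes and lists were chosen with earlier results of these data known. Dams are the replicates, and the smallest group in the fits over both runs holds 3. Fits of a single run or with a dam left out hold smaller groups, such as the 2 PFO5DoA controls of the second run. Libraries of 7133010 to 15255000 counts gave at least 289 counts of Afp, and depth does not cover differences between dams. The 2 dams at 0.1 mg/kg/d entered no comparison with controls and no trend, but are among the PFO5DoA libraries of the correlations. Dam 2279 entered no analysis. Replicate pairs differed by more than counting error.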

Additional observations from a re-analysis of the deposited data

Results flagged for a closer look

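Dixon's test was run for Alb and Afp in each group of 4 to 6 dams, 42 tests in all, and in 3 of them 1 dam lay far from the others. Chance alone gives this in about 1 in 20 tests. Afp was 31815 CPM in the fetal library of dam 2307 (30 mg/kg/d PFO4DA), where the other 3 dams had 18490, 19327 and 19819 CPM. Alb was 6880 CPM in the fetal library of dam 2319 (62.5 mg/kg/d PFO4DA), where the others had 3984, 4187 and 4080 CPM. Afp was 37342 CPM in the fetal library of dam 2263, a PFO5DoA control, where the other controls had at most 24238 CPM.

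The change at 30 mg/kg/d PFO5DoA differed between the livers, with a maternal minus fetal log2 difference of 1.44 for Alb and 3.15 for Afp (edgeR, adjusted p = 0.0314 and 1.34e-05). It differed between the chemicals in fetal liver at the same dose, with a PFO5DoA minus PFO4DA log2 difference of -1.99 for Alb and -3.24 for Afp (edgeR, adjusted p = 3.26e-05 and 1.45e-08). In each of these comparisons the fetal PFO5DoA change was the lower one.

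At 0.1 mg/kg/d PFO5DoA, which was not compared with controls by a test, the fetal library of dam 2267 had 9413 CPM of Alb and 43956 CPM of Afp, above the highest controls at 7342 and 37342 CPM. Its TMM factor was 0.791, which raises both values. As a share of all counts without that scaling, its Alb was 0.745%, below the 0.816% of control dam 2278. Its Afp was 3.48%, still above the highest control at 3.26%.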

How the results depend on the processing

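The fetal falls at 30 mg/kg/d PFO5DoA were called under every alternative that held libraries of that dose, and leaving out 1 dam at a time gave -3.56 to -3.10 for Afp and -1.84 to -1.71 for Alb. Values below are log2 fold changes, or slopes for trends. Scaling to the total moved the median of all genes by up to 0.24 in dose comparisons, and gave 0.036 for maternal Afp at 30 mg/kg/d PFO5DoA, 0.0057 for the maternal PFO5DoA Alb trend, 0.012 for fetal Afp at 30 mg/kg/d PFO4DA, -0.038 (not called) for its trend, 0.039 for the maternal Alb difference of the chemicals at 30 mg/kg/d and -0.91 (called) for the fetal one at 10 mg/kg/d, where limma gave -1.09 (called). It also moved the share of higher calls at 30 mg/kg/d PFO5DoA in fetal liver from 51.5% to 71.9%. With run as a term, maternal PFO5DoA Afp was 0.31 at 30 mg/kg/d and 0.032 as a trend, fetal PFO4DA Alb was 0.0067 at 62.5 mg/kg/d, maternal PFO4DA Afp was -0.63 at 30 mg/kg/d (1 member called) and the fetal PFO4DA Afp trend was -0.0563 (not called, as with ranked doses, -0.0567). The second run alone gave 0.40 for maternal PFO5DoA Afp at 30 mg/kg/d, 0.16 for fetal PFO4DA Alb at 62.5 mg/kg/d, and -0.72 and -0.65 for maternal PFO4DA Afp at 30 and 62.5 mg/kg/d (2 called). The first run alone gave -0.70 (called) for fetal PFO5DoA Alb at 10 mg/kg/d, 0.26 for maternal and -0.0106 for fetal PFO4DA Alb at 30 mg/kg/d, and 0.0332 for fetal PFO4DA Afp there. DESeq2 gave -0.67 and limma -0.75 for fetal PFO5DoA Alb at 10 mg/kg/d, and DESeq2 -0.72 for maternal PFO4DA Afp at 62.5 mg/kg/d (1 called). Each dose with its controls alone gave -0.61 and -0.71 for maternal PFO4DA Afp at 30 and 62.5 mg/kg/d (2 called). Without the highest dose the trends were 0.0186 and 0.011 for maternal Alb (PFO5DoA, PFO4DA), 0.017 for fetal PFO4DA Alb, -0.19 and -0.0423 for fetal Afp, and -0.11 for maternal PFO4DA Afp, none called. Without 30 mg/kg/d and dam 2284 the fetal PFO5DoA trends were -0.15 (Alb) and -0.10 (Afp). Both libraries of a dam summed gave -0.66 (Alb) and -3.21 (Afp) at 30 mg/kg/d PFO5DoA (2 called), and for Alb -0.50 (1 called) at 62.5 and -0.0179 at 30 mg/kg/d PFO4DA. The cause of these shifts was not tested.

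Leaving out 1 dam at a time gave -0.245 to 0.0700 for fetal PFO4DA Afp at 30 mg/kg/d and -0.0804 to -0.0582 for its trend, -0.20 to 0.20 for maternal PFO4DA Alb at 30 mg/kg/d, -0.0989 to -0.058 for the maternal PFO5DoA Afp trend (called without dam 2280 alone), -0.996 to -0.41 for fetal PFO5DoA Alb and -0.86 to -0.31 for Afp at 10 mg/kg/d, -1.23 to -0.70 for the Alb difference from PFO4DA there (called without dam 2283 or 2295) and -0.70 to -0.20 for the Afp one, and 1.11 to 1.57 for the Alb difference of the livers.

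Replicate numbers did not pair the dams: 6 of 23, 7 of 22, 1 of 30 and 5 of 30 libraries were nearest to one of their own number. With the replicate block, maternal PFO4DA Afp at 62.5 mg/kg/d was -0.79 and called (adjusted p = 0.0142), which made 1 call in place of 0, and no other dose comparison of Alb or Afp changed its call. Trends and the differences between livers or chemicals were not refitted with the block.

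The groups in the fits over both runs hold 3 to 6 dams, runs and doses overlap only in part, and the highest dose of each chemical was given in the second run alone. Life stage rests on the values and not on a label.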
